A study of Mus musculus with 37 samples.

Results

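The change of cardiac fibroblasts (CFs) between 24 h and 48 h of culture was measured in media of myocytes that had been given neither ATP nor AMP. The comparison takes the 8 CF libraries from vehicle and ENPP1 medium, 4 at 48 h against 4 at 24 h, out of 20 CF libraries and 37 samples in the whole series. All 20 CF libraries are RNA sequencing of immortalized CFs of wild-type C57BL/6 mice, a line made with the SV40 antigen, so the cells are 1 cultured line and not fibroblasts taken freshly from a heart. Cells at low density in serum were moved to serum-free medium with insulin, transferrin and selenium and then to myocyte conditioned medium (MCndM), which is medium that neonatal rat ventricular myocytes (NRVMs) had conditioned beforehand. The NRVMs had received vehicle, ENPP1 (an ectonucleotidase that splits extracellular ATP into AMP and pyrophosphate), ATP, ENPP1 together with ATP, or AMP, and each medium has 2 libraries at 24 h and 2 at 48 h. Vehicle, ENPP1 and ATP MCndM are the control media of the study, and the comparison asks how the CFs changed with time in media without added ATP or AMP. Time in MCndM, time without serum, harvest and any change in cell density cannot be told apart here, and whether the line is 1 clone is not given. The study describes its replicates in general as biological, but the labels do not say what separates the 2 libraries of a group, and the p-values measure the spread between these libraries.

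Serum withdrawal and contact between cells both act on fibroblasts through D cyclins, which carry growth factor signals to the retinoblastoma protein and so to the genes of DNA replication. Fibroblasts also respond to nucleic acids and to their own type I interferon. Interferon-β binds its receptor, transcription factors enter the nucleus, and a large set of antiviral genes is transcribed from short promoter elements. The same cells make the collagen matrix of the scar, and their sterol, amino acid and ribosome genes follow nutrient and growth signals.

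Total counts ranged from 32184799 to 115824659 per library, the deepest being vehicle 24 h replicate 1 and the shallowest ENPP1 48 h replicate 1. ENPP1 48 h replicate 1 stood apart on the first principal component of log2 CPM (counts scaled to library size), which held 45.3% of the variance, with a score of 50.7 against 1.9 to 11.6 for the other 48 h libraries and -32.9 to -9.4 for the 24 h libraries. Without that library 1889 genes were higher and 2211 lower at 48 h, against 1994 and 2382 with it. The share of counts on mitochondrial ribosomal RNA was 0.29% to 0.53% at 24 h and 0.17% to 0.29% at 48 h, and its part in the results was not tested. Fibroblast markers summed to 10100 to 10900 CPM at 24 h and 9750 to 10500 CPM at 48 h, with Col1a1, Col1a2 and Pdgfra present in every library and Thy1 at or below 0.0631 CPM. The 8 endothelial markers summed to 3.60 to 5.07 CPM, mostly Tek, and the defining genes Pecam1 and Cdh5 stayed at or below 0.241 CPM. The 10 leukocyte markers summed to 8.35 to 9.76 CPM at 24 h and 9.31 to 10.9 CPM at 48 h, with Lyz2 at 4.94 to 6.08 CPM, Cd68 at 1.93 to 2.84 CPM and Csf1r at 0.737 to 2.15 CPM. None of these 3 passed the test, and the defining genes Ptprc and Adgre1 stayed at or below 0.0626 CPM. The 12 cardiomyocyte markers summed to 20.7 to 25.9 CPM at 24 h and 20.6 to 25.2 CPM at 48 h, and none of the 11 tested changed.

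Of 16526 genes tested, 1994 (12.1%) were higher and 2382 (14.4%) were lower at 48 h, called at an adjusted p under 0.05 in edgeR's quasi-likelihood test with medium as a covariate. These shares are the background against which each gene list below is read. Most changes were small: the median size over the called genes was 0.188 on the log2 scale, 126 genes rose and 62 fell by more than 1 log2 unit, and the median over all genes tested was 0.00825. CPM values below are scaled by trimmed mean (TMM) factors, and they compare libraries for 1 gene, not levels between genes. The strand setting of the counting is not given, so reads of a gene and of an antisense neighbour cannot be told apart, and C3, Col4a5, Crim1, Ctsd, Ctsl, Dapk1, Fads1, Fas, Fdps, Heph, Loxl3, Ltbp1, Pcsk6, Pdgfra and Per3 overlap an annotated gene on the same strand. In bulk RNA a fall may be fewer cells of a state or less RNA per cell, and these cannot be told apart.

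ENPP1 against vehicle over both times called 1 gene (0.00605% of those tested), with 1541 at an unadjusted p under 0.05. DESeq2 called 5 higher and 27 lower with ENPP1, and edgeR without a filter on low counts 106 higher and 206 lower. With replicate number as a block, edgeR called 60 higher and 150 lower. The 1 gene was the chemokine gene Ccl7, at log2 -0.22 ± 0.031 (SE) in ENPP1 medium (adjusted p = 0.0396). Ccl7 was at 264 and 262 CPM in vehicle and 233 and 232 CPM in ENPP1 medium at 24 h, and at 240.0 and 225 CPM against 203 and 187 CPM at 48 h, so the media did not overlap at either time. The medium by time interaction called 0 genes (0%), with 495 at an unadjusted p under 0.05 and 0 by DESeq2. The Ccl7 call was lost with upper-quartile factors, with all 20 CF libraries in the fit, and without any 1 of ENPP1 24 h replicates 1 and 2, vehicle 24 h replicates 1 and 2 and vehicle 48 h replicates 1 and 2. Both counts depended on single libraries: 10 genes higher and 22 lower with ENPP1 were called without ENPP1 48 h replicate 1, and 60 interaction genes, all higher, without ENPP1 48 h replicate 2.

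Interferon-stimulated genes had the largest share of members called lower among the 29 lists read. Of 45 interferon-stimulated genes tested, 39 fell, 3 rose and 3 did not pass the test, with a median log2 fold change of -0.485 (the median over all genes is given above). The 39 are 86.7% of the list, beside the 14.4% of all genes called lower. Without ENPP1 48 h replicate 1 the count was 38, and it was 37 in vehicle MCndM alone and 37 in ENPP1 MCndM alone.

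The promoters of 4 of these genes are shown because they hold the motif counted for this group. They are the 250 bases before the RefSeq transcription start on GRCm38.p6, written 5′ to 3′ on the strand of the gene in lower case, and capitals mark matches to GAAANNGAA on either strand, with overlapping matches run together. Isg15 (chr4:156200819-156201068, minus strand), Ifit1 (chr19:34640639-34640888, plus strand) and Cxcl10 (chr5:92348890-92349139, minus strand) fell, and B2m (chr2:122147437-122147686, plus strand) rose. Isg15 and Ifit1 were chosen after their values were seen.
Isg15: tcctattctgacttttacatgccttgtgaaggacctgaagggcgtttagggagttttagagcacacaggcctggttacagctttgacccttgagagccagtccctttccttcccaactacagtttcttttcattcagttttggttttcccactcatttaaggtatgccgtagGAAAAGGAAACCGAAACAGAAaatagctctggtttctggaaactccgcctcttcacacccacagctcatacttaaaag
Ifit1: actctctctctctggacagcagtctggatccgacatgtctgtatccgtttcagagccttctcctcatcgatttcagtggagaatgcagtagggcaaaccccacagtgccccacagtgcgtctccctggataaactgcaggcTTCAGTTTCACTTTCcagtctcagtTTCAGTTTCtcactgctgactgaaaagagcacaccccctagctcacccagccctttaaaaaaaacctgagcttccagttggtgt
Cxcl10: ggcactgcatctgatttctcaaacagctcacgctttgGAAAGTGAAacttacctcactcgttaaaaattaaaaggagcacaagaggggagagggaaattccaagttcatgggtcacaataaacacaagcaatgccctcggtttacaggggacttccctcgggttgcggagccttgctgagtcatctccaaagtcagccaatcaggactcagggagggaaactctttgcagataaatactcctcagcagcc
B2m: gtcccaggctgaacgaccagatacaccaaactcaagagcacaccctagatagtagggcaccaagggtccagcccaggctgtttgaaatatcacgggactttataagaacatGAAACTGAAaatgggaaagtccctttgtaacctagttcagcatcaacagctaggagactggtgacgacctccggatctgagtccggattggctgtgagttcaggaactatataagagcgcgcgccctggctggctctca

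Isg15 and Ifit1 each hold 3 matches, the first starting 78 and 109 bases before the transcription start, and Cxcl10 and B2m hold 1 each. RefSeq promoters were matched for 34 of the 45 genes. GAAANNGAA, the core of the interferon-stimulated response element, occurred in 16 of their 38 windows (42.1%) and in 7.13% of all 32851 windows of the same length, counted on both strands. This motif was chosen after the values were seen, together with TTTNNCGC, found in 23.8% of replication, 11.6% of ribosome biogenesis, 7.89% of interferon, 2.86% of ATF4 and 0% of sterol windows, and in 4.28% of all windows. Also added then was TCACNCCAC, found in 5% of sterol windows (1 of 20), in 2.38% of replication windows, in none of the other lists and in 1.05% of all windows. B2m holds GAAANNGAA and rose, so the letters alone do not sort the directions.

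The ligand fell with its targets. Ifnb1, the interferon-β gene (chr4:88522025-88522774, minus strand, GENCODE M21 on GRCm38), was at 2.13 and 1.76 CPM in vehicle MCndM and 0.909 and 1.43 CPM in ENPP1 MCndM at 24 h, against 0.518 and 0.459 CPM and 0.485 and 0.455 CPM at 48 h. Every 48 h library lay below every 24 h library, and the 24 h libraries spread more widely than those at 48 h (log2 fold change -1.702 ± 0.22 (SE), adjusted p = 3.36e-05). Ifna4, an interferon-α gene whose reads may be shared with its close copies, was also low and lower at 48 h (log2 fold change -1.90 ± 0.26 (SE), adjusted p = 5.03e-05). The receptor gene Ifnar1 was at 93.8 and 86.8 CPM in vehicle MCndM and 89.96 and 92.2 CPM in ENPP1 MCndM at 24 h, against 92.0 and 93.1 CPM and 93.1 and 95.9 CPM at 48 h, with no change that passed the test (log2 fold change 0.042 ± 0.030 (SE), adjusted p = 0.317).

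Several sensors of nucleic acid fell. Tlr3, the endosomal receptor for double-stranded RNA, was at 240.3 and 259 CPM in vehicle MCndM and 222 and 255 CPM in ENPP1 MCndM at 24 h, against 149 and 151 CPM and 141 and 152 CPM at 48 h, with no overlap between times (log2 fold change -0.72 ± 0.043 (SE), adjusted p = 3.79e-07). Ifih1 and Ddx58, the cytosolic RNA sensors MDA5 and RIG-I, gave log2 fold changes of -0.50, adjusted p = 9.24e-09, and -0.34, adjusted p = 9.36e-08. Tmem173, the adaptor STING, fell by less (-0.25, adjusted p = 6.88e-05), and Mb21d1, the DNA sensor cGAS, did not pass the test (-0.063, adjusted p = 0.215). Stat2, a transcription factor of the response, fell (-0.36, adjusted p = 1.1e-07). The genes in this paragraph and the one before were named after their values were seen.

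Among the products of interferon signalling, Mx1, a GTPase that blocks viral replication (chr16:97447035-97462907, minus strand), was at 70.3 and 82.6 CPM in vehicle MCndM and 65.6 and 96.8 CPM in ENPP1 MCndM at 24 h, against 31.1 and 28.6 CPM and 28.8 and 28.6 CPM at 48 h. Replicate 2 of each medium was the higher of its pair at 24 h, while the 48 h libraries lay close together, far below (log2 fold change -1.42 ± 0.15 (SE), adjusted p = 0.00147). Cxcl10, a chemokine that draws activated T cells (chr5:92346638-92348889, minus strand), was at 249.8 and 288 CPM in vehicle MCndM and 214 and 292 CPM in ENPP1 MCndM at 24 h, against 124 and 124 CPM and 110.3 and 121 CPM at 48 h. It fell 2.18-fold with no overlap (log2 fold change -1.12 ± 0.11 (SE), adjusted p = 0.00129). Zbp1, a sensor of Z-form nucleic acid, fell 2.20-fold (log2 fold change -1.14 ± 0.10 (SE), adjusted p = 0.000679). Isg15, a ubiquitin-like protein, was at 569 and 601 CPM in vehicle MCndM and 533 and 592 CPM in ENPP1 MCndM at 24 h, against 397 and 409 CPM and 367 and 350.3 CPM at 48 h, lower in each 48 h library (log2 fold change -0.59 ± 0.037 (SE), adjusted p = 1.24e-07), and Ifit1, which binds foreign RNA caps, gave log2 fold change -0.60 ± 0.030 (SE), adjusted p = 1.92e-09.

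Further interferon-induced genes stood among the 12 largest falls of genes whose mean log2 CPM reached 2. Oas3, an oligoadenylate synthetase, gave log2 fold change -1.30 ± 0.17 (SE), adjusted p = 0.00339, and Ifi206, of the interferon-inducible p200 family, gave log2 fold change -1.58 ± 0.19 (SE), adjusted p = 0.00223. Tgtp1 (-1.20, adjusted p = 1.32e-08), Gm12185 (-1.32, adjusted p = 9.36e-08) and Gm12250 (-1.30, adjusted p = 0.000316) are interferon-inducible GTPase genes on chromosome 11. Tgtp1 and Gm12185 overlap annotated genes on the same strand, and these families have close copies, so their reads may be shared. Tnfsf10, the death ligand TRAIL, fell as well (-1.20, adjusted p = 1.66e-05). Mpeg1, a pore-forming protein best known from macrophages, had the largest fall of the 12, at 6.97 and 9.99 CPM in vehicle MCndM and 7.34 and 10.0 CPM in ENPP1 MCndM at 24 h, against 2.24 and 1.92 CPM and 2.34 and 2.32 CPM at 48 h (log2 fold change -1.95 ± 0.14 (SE), adjusted p = 6.41e-07). The leukocyte markers given above were at 8.35 to 10.9 CPM in sum, none called changed, with Ptprc and Adgre1 at or below 0.0626 CPM, and their part in the fall of Mpeg1 was not tested. The uncharacterized transcript A730011C13Rik also fell (-1.35, adjusted p = 5.25e-05).

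The exceptions were few. Ifi27, a mitochondrial protein induced by interferon (chr12:103434211-103440239, plus strand), was at 53.8 and 53.2 CPM in vehicle MCndM and 48.4 and 52.4 CPM in ENPP1 MCndM at 24 h, against 90.1 and 93.9 CPM and 98.6 and 104 CPM at 48 h. It rose 1.85-fold against the direction of most of its list (log2 fold change 0.89 ± 0.046 (SE), adjusted p = 4.09e-08). B2m, the light chain of MHC class I, rose by less (log2 fold change 0.13 ± 0.031 (SE), adjusted p = 0.00537), a call lost in vehicle MCndM alone (0.10, adjusted p = 0.194). H2-D1, a heavy chain of MHC class I whose reads may be shared with close copies, was at 2496 and 2666 CPM in vehicle MCndM and 2568 and 2776 CPM in ENPP1 MCndM at 24 h, against 2756 and 3154 CPM and 2863 and 3256 CPM at 48 h. Its libraries overlapped between times (log2 fold change 0.20 ± 0.056 (SE), adjusted p = 0.033), and the call was lost without ENPP1 24 h replicate 1 (adjusted p = 0.104), vehicle 24 h replicate 1 (0.0848), ENPP1 48 h replicate 2 (0.0835) or vehicle 48 h replicate 2 (0.0572).

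**Figure D1:**
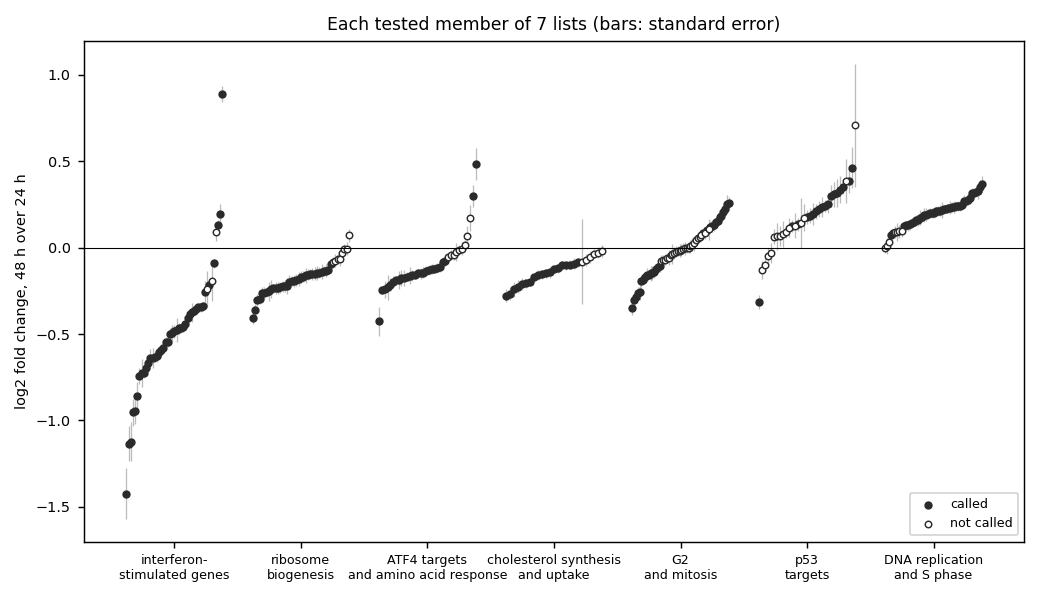
Log2 fold change at 48 h over 24 h of each tested member of 7 gene lists, sorted within each list; filled points passed the test, open points did not, and bars are standard errors. The 39 interferon-stimulated genes that fell reach -1.42 at Mx1, while Ifi27 lies at 0.89, and 42 of 49 replication genes passed the test above 0.

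The cell cycle genes moved in 2 directions. Of 49 genes of DNA replication and S phase, 42 rose, 0 fell and 7 did not pass the test (85.7% against 12.1% of all genes), with a median log2 fold change of 0.199. The range over the members was -0.003 to 0.369, so the changes were small but shared. The 8 fits without 1 library gave 40 to 43 rises.

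Rrm2, the small subunit of ribonucleotide reductase that makes deoxynucleotides (chr12:24708241-24714146, plus strand), was at 84.6 and 82.2 CPM in vehicle MCndM and 84.9 and 83.5 CPM in ENPP1 MCndM at 24 h, against 99.3 and 107 CPM and 105 and 122 CPM at 48 h. The 24 h libraries lay close together and below all 48 h libraries (log2 fold change 0.37 ± 0.048 (SE), adjusted p = 0.000189). Ccne1 (log2 fold change 0.35 ± 0.040 (SE), adjusted p = 7.7e-06) and Ccne2 (log2 fold change 0.33 ± 0.045 (SE), adjusted p = 6.94e-05), the E cyclins that start S phase, rose in step. Tyms, thymidylate synthase, rose 1.18-fold (log2 fold change 0.23 ± 0.027 (SE), adjusted p = 9.03e-06), and Dck, which salvages deoxycytidine, rose 1.24-fold (log2 fold change 0.31 ± 0.033 (SE), adjusted p = 4.64e-06).

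Genes of G2 and mitosis divided. Of 54 tested, 13 rose, 16 fell and 25 did not pass the test, with a median of -0.014; the count of rises was 8 without ENPP1 24 h replicate 2. In vehicle MCndM alone 3 rose and 13 fell, and in ENPP1 MCndM alone 12 rose and 9 fell. Counts and values in 1 medium alone, here and below, compare 2 libraries with 2. The medium by time interaction, which tests the difference between the media, called 0 genes in the main fit. Ccnb2, a B cyclin, was at 63.8 and 63.3 CPM in vehicle MCndM and 66.5 and 63.7 CPM in ENPP1 MCndM at 24 h, against 46.6 and 51.9 CPM and 49.0 and 54.7 CPM at 48 h, lower at 48 h in every library (log2 fold change -0.35 ± 0.040 (SE), adjusted p = 1.31e-05). Plk1, a kinase of mitotic entry (-0.30, adjusted p = 5.56e-06), and Cdc20, which activates the anaphase-promoting complex (-0.29, adjusted p = 2.42e-05), also fell. Mki67, the Ki-67 antigen of dividing cells, was at 417 and 391 CPM in vehicle MCndM and 399.9 and 386 CPM in ENPP1 MCndM at 24 h, against 459.6 and 444 CPM and 485 and 476 CPM at 48 h and rose (log2 fold change 0.22 ± 0.031 (SE), adjusted p = 6.8e-05), as did the kinase genes Pbk (0.26, adjusted p = 7.41e-05) and Melk (0.25, adjusted p = 0.00235).

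The D cyclins fell while replication genes rose. Ccnd1, cyclin D1 (chr7:144929931-144939925, minus strand), was at 46.4 and 51.6 CPM in vehicle MCndM and 46.9 and 47.0 CPM in ENPP1 MCndM at 24 h, against 23.6 and 25.5 CPM and 22.0 and 23.7 CPM at 48 h. Its level fell 2.02-fold, with no overlap between times (log2 fold change -1.01 ± 0.043 (SE), adjusted p = 4.64e-10). Ccnd2 was at 339 and 385 CPM in vehicle MCndM and 367 and 395 CPM in ENPP1 MCndM at 24 h, against 273 and 287 CPM and 278 and 299 CPM at 48 h and fell 1.31-fold (log2 fold change -0.39 ± 0.043 (SE), adjusted p = 5.57e-05). Of the 22 D cyclins and cell cycle inhibitors tested, 6 rose (27.3%) and 4 fell (18.2%), beside 12.1% and 14.4% of all genes. The inhibitor genes Cdkn1b, Cdkn1c, Cdkn2a, Cdkn2b, Cdkn2c and Cdkn2d did not pass the test. Neither did Cdkn1a, described below with the p53 targets. Rb1, the retinoblastoma protein on which the D cyclins act, rose 1.41-fold (log2 fold change 0.50 ± 0.044 (SE), adjusted p = 7.24e-07; 2 annotated genes overlap it on the same strand). Gas6, a growth arrest-specific ligand of the TAM receptors, rose 1.60-fold from a low level (log2 fold change 0.68 ± 0.091 (SE), adjusted p = 4.25e-05). These are transcripts of a line made with the SV40 antigen. Whether D cyclins act through the retinoblastoma protein in this line was not tested.

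Targets of p53 leaned upward. SV40 large T antigen binds p53, so the list describes transcripts and not p53 itself. Of 33 tested, 17 rose (51.5%) and 1 fell, with a median of 0.178. In vehicle MCndM alone 3 rose and in ENPP1 MCndM alone 8, from the fit with an interaction term. Ccng1, cyclin G1, was at 169 and 185 CPM in vehicle MCndM and 179.8 and 179 CPM in ENPP1 MCndM at 24 h, against 207 and 239 CPM and 223 and 264 CPM at 48 h (log2 fold change 0.39 ± 0.072 (SE), adjusted p = 0.00859). Zmat3, an RNA-binding protein, gave log2 fold change 0.35 ± 0.039 (SE), adjusted p = 1.06e-05, Mdm2, the ligase that degrades p53, gave log2 fold change 0.21 ± 0.044 (SE), adjusted p = 0.00441, and Fas, a death receptor, gave log2 fold change 0.24 ± 0.058 (SE), adjusted p = 0.00656. In vehicle MCndM alone the value of Fas was 0.12 and did not pass the test (adjusted p = 0.322), against 0.37 in ENPP1 MCndM. Cdkn1a, the p21 inhibitor of cyclin-dependent kinases, was at 115 and 131 CPM in vehicle MCndM and 132 and 134 CPM in ENPP1 MCndM at 24 h, against 139 and 177 CPM and 149 and 202 CPM at 48 h. Its 48 h libraries were all higher but spread widely, with replicate 2 above replicate 1 in each medium and time. The change did not pass the test (log2 fold change 0.38 ± 0.13 (SE), adjusted p = 0.0862). It did pass with DESeq2 (log2 0.38, adjusted p = 0.0191), in a fit of all 20 CF libraries (0.38, adjusted p = 0.024) and with replicate number as a block (0.37, adjusted p = 0.00742). Plk2 was the member that fell (-0.31, adjusted p = 6.31e-05). Outside this list, the BCL2 family gene Bak1, which permeabilizes mitochondria, fell (-0.32, adjusted p = 4.11e-06) and Bcl2l11, the BH3-only protein BIM, rose (0.26, adjusted p = 0.000159).

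**Figure D2:**
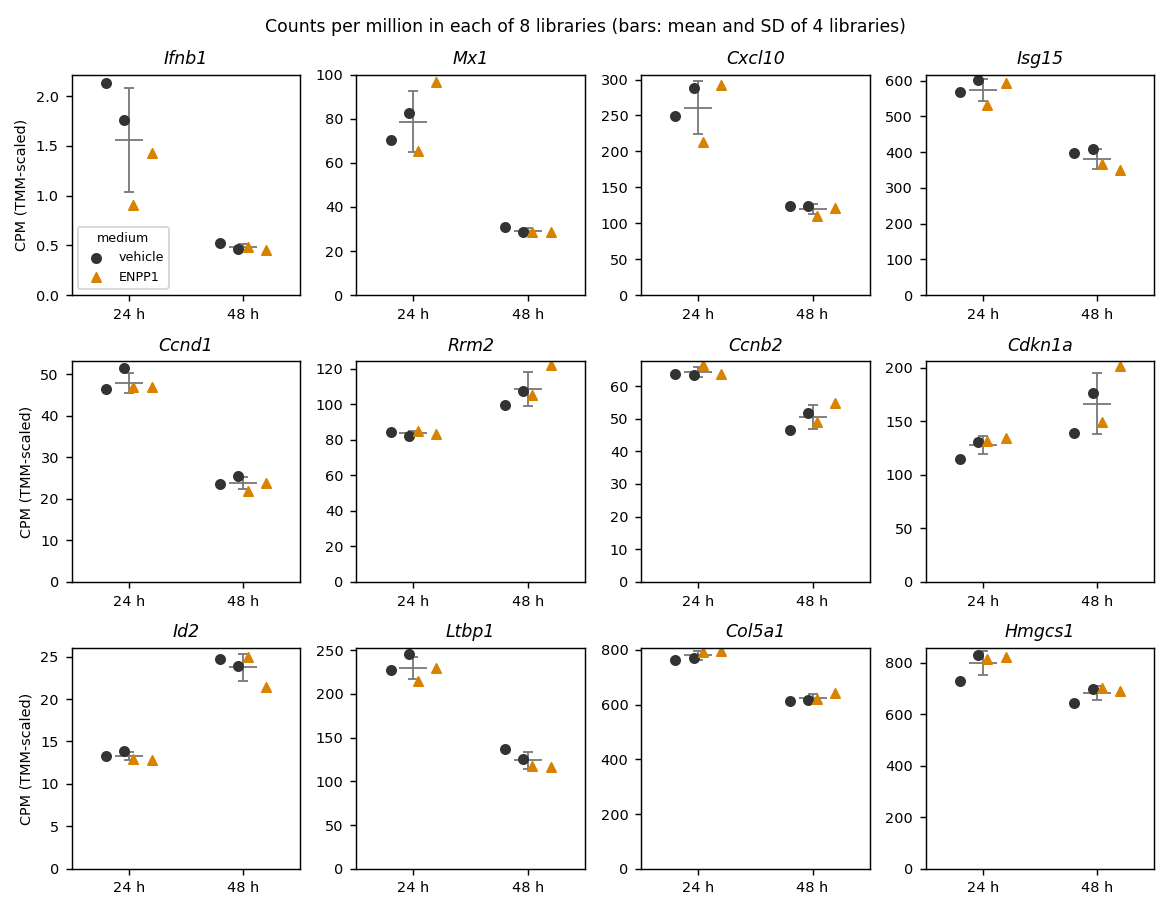
CPM of 12 genes in each of the 8 libraries, by time and medium (circles, vehicle; triangles, ENPP1), with the mean and SD of the 4 libraries at each time and each axis starting at 0. The 24 h and 48 h libraries do not overlap in any of the 12 panels.

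Genes of ribosome biogenesis fell together. Of 43 tested, 35 fell (81.4% against 14.4%), 0 rose and 8 did not pass the test, with a median log2 fold change of -0.17. In vehicle MCndM alone 19 fell and in ENPP1 MCndM alone 31. Wdr43, a nucleolar factor of the small subunit, was at 94.3 and 104 CPM in vehicle MCndM and 96.8 and 101.2 CPM in ENPP1 MCndM at 24 h, against 75.8 and 77.3 CPM and 69.5 and 75.4 CPM at 48 h (log2 fold change -0.41 ± 0.037 (SE), adjusted p = 1.24e-06). Tsr1, which matures the small subunit (-0.36, adjusted p = 2.08e-06), and Dkc1, the pseudouridine synthase dyskerin (-0.30, adjusted p = 1.59e-05), followed. All 3 overlap annotated genes on the same strand, and reads from these cannot be told apart here.

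The amino acid response moved the same way. Of 36 targets of ATF4, the transcription factor of amino acid shortage and endoplasmic reticulum stress, 25 fell (69.4%) and 2 rose. The count was 15 when all 20 CF libraries shared 1 fit, and 7 in vehicle MCndM alone against 19 in ENPP1 MCndM alone. Psat1, of serine synthesis, was at 324 and 335 CPM in vehicle MCndM and 317 and 312 CPM in ENPP1 MCndM at 24 h, against 284 and 276 CPM and 267 and 259 CPM at 48 h (log2 fold change -0.25 ± 0.025 (SE), adjusted p = 2.52e-06), and Atf3, a stress-induced repressor, gave log2 fold change -0.43 ± 0.084 (SE), adjusted p = 0.00592. The exceptions were Slc7a3, a cationic amino acid carrier (log2 fold change 0.48 ± 0.093 (SE), adjusted p = 0.00101), and Gdf15, a stress cytokine whose libraries overlapped between times (log2 fold change 0.30 ± 0.064 (SE), adjusted p = 0.0061). Of 21 genes of folding in the endoplasmic reticulum, 9 fell and 3 rose. Hspa5, the chaperone BiP, was at 947 and 1024 CPM in vehicle MCndM and 928 and 977 CPM in ENPP1 MCndM at 24 h, against 815 and 826 CPM and 792 and 816 CPM at 48 h (log2 fold change -0.26 ± 0.029 (SE), adjusted p = 7.82e-06), and Xbp1, a transcription factor of the unfolded protein response, fell 1.38-fold (log2 fold change -0.46 ± 0.033 (SE), adjusted p = 4.61e-08). Sel1l, an adaptor in degradation of misfolded proteins, rose (0.17, adjusted p = 5.23e-05).

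Sterol synthesis fell by small steps. Of 25 genes of cholesterol synthesis and uptake, 19 fell (76.0%) and 0 rose, with a median of -0.122 and a lowest value of -0.28. In vehicle MCndM alone 10 fell and in ENPP1 MCndM alone 14. Hmgcs1, which makes HMG-CoA (chr13:119690379-119708260, plus strand), was at 727 and 829 CPM in vehicle MCndM and 816 and 821 CPM in ENPP1 MCndM at 24 h, against 644 and 696 CPM and 701 and 690.2 CPM at 48 h (log2 fold change -0.23 ± 0.037 (SE), adjusted p = 0.00062). Pmvk (-0.28, adjusted p = 3.93e-05), Hsd17b7 (-0.27, adjusted p = 5.83e-05) and Fdps (-0.24, adjusted p = 0.000956) are later enzymes of the pathway. The promoter of Hmgcs1 is shown because CCAAT, one of 4 motifs searched first, recurs in this group. It lies at chr13:119690101-119690350, plus strand, with 3 matches to CCAAT on either strand in capitals.
Hmgcs1: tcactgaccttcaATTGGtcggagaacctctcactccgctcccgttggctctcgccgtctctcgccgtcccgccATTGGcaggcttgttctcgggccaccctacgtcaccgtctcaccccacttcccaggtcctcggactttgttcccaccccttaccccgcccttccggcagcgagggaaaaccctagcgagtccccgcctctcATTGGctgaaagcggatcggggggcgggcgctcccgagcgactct

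CCAAT occurred in 16 of 20 windows of the 17 sterol genes with a RefSeq promoter (80.0%), in 25 of 42 windows of the replication genes (59.5%) and in 33.8% of all windows. For interferon-stimulated genes it was 44.7%, for ATF4 targets 42.9% and for ribosome biogenesis 20.9% (9 of 43 windows). CACGTG occurred in 6.02% of all windows, in 20% of sterol windows (4 of 20) in 11.9% of replication windows (5 of 42), and in 8.57% of ATF4, 4.65% of ribosome biogenesis and 2.63% of interferon windows. TGAGTCA occurred in 4.46% of all windows and in 13.2% of interferon windows (5 of 38), 10% of sterol windows, 5.71% of ATF4 windows and 0% of replication and ribosome biogenesis windows. TTTGAA occurred in 16% of all windows, and its share in the 5 lists searched was between 5% and 15.8%.

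Of 12 genes of fatty acid synthesis, 6 fell and 0 rose, among them Scd1 (-0.19, adjusted p = 0.000129), Fads1 (-0.13, adjusted p = 0.000823) and Elovl6 (-0.18, adjusted p = 0.00484), which desaturate or lengthen fatty acids. Of 7 genes of cholesterol efflux, 3 rose and 0 fell. Abca1, the exporter of cellular cholesterol, was at 126 and 132 CPM in vehicle MCndM and 132 and 145 CPM in ENPP1 MCndM at 24 h, against 175 and 178 CPM and 190.3 and 178 CPM at 48 h (log2 fold change 0.43 ± 0.033 (SE), adjusted p = 1.08e-07). Apoe, an acceptor of cholesterol, rose from a low level (log2 fold change 0.56 ± 0.10 (SE), adjusted p = 0.000697), and Mylip, the ligase that degrades the LDL receptor, rose slightly (log2 fold change 0.16 ± 0.038 (SE), adjusted p = 0.00517).

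**Figure D3:**
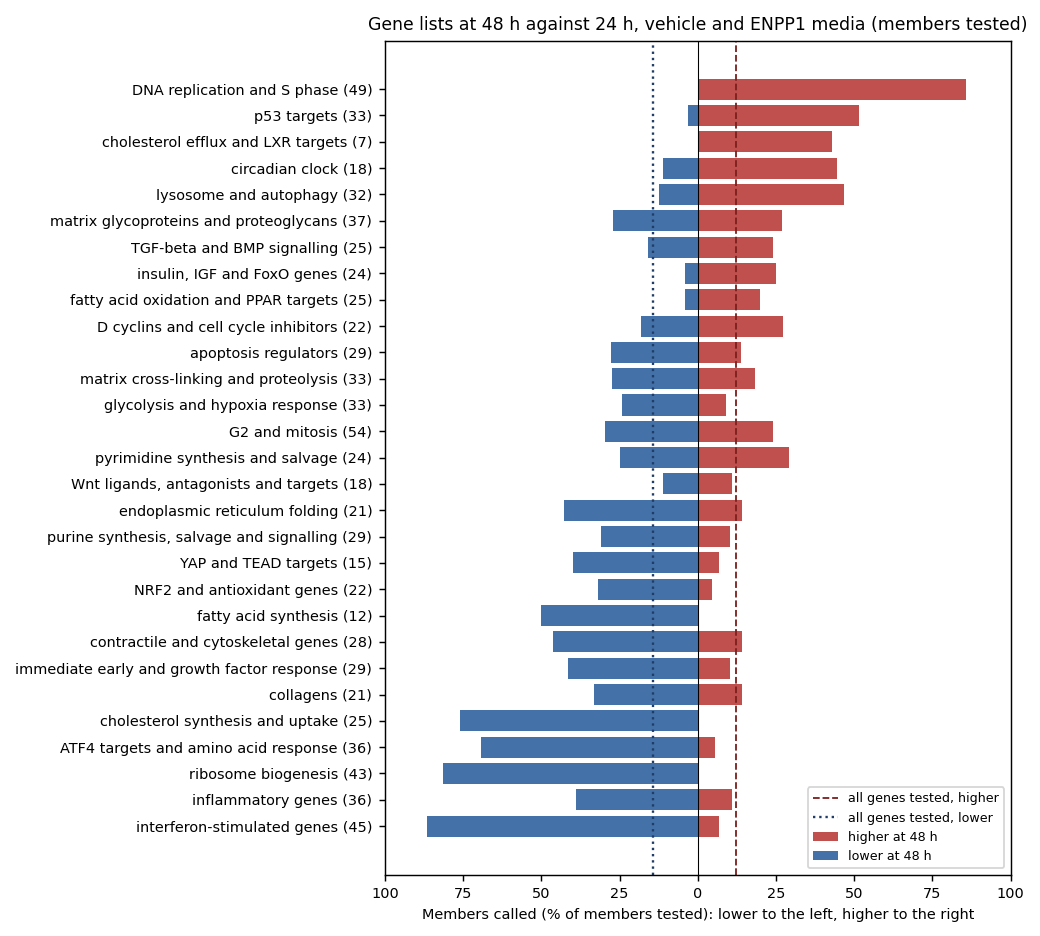
Share of tested members of each of 29 gene lists that were called higher (right) or lower (left) at 48 h, sorted by the median log2 fold change, with the number tested in parentheses. Dashed and dotted lines mark the 12.1% and 14.4% of all genes tested, and the longest bars are interferon-stimulated genes (86.7% lower) and DNA replication (85.7% higher).

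Of 21 collagens, 7 fell (33.3%) and 3 rose (14.3%), the rises being close to the 12.1% of all genes. Col5a3 fell 1.67-fold (log2 fold change -0.74 ± 0.039 (SE), adjusted p = 2.44e-09), and Col5a1, a chain of the type V collagen that nucleates fibrils, was at 763 and 771 CPM in vehicle MCndM and 793 and 796 CPM in ENPP1 MCndM at 24 h, against 614 and 617 CPM and 619 and 644 CPM at 48 h (log2 fold change -0.32 ± 0.024 (SE), adjusted p = 6.81e-08). Col4a1, of basement membrane, fell by less (-0.23, adjusted p = 1.31e-05). Col12a1, which decorates fibrils, rose 1.25-fold (log2 fold change 0.32 ± 0.037 (SE), adjusted p = 3.26e-05), and Col4a5 rose by less (0.15, adjusted p = 0.00142). Col1a1, the main chain of type I collagen, was at 4147 and 3907 CPM in vehicle MCndM and 3967 and 3910 CPM in ENPP1 MCndM at 24 h, against 3853 and 3699 CPM and 3662 and 3767 CPM at 48 h. Its fall was slight (log2 fold change -0.089 ± 0.027 (SE), adjusted p = 0.0229) and lost the call under upper-quartile scaling (adjusted p = 0.066), in the fit of 20 libraries (0.0795), and without ENPP1 24 h replicate 1 (0.0594), vehicle 24 h replicate 1 (0.0765), ENPP1 48 h replicate 1 (0.0516) or vehicle 48 h replicate 2 (0.0875). Col1a2 did not pass the test (log2 fold change -0.071 ± 0.027 (SE), adjusted p = 0.0602). It did with DESeq2 (adjusted p = 0.0225), with replicate number as a block (0.0143) and without ENPP1 48 h replicate 1 (0.0434) or vehicle 48 h replicate 1 (0.049).

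Among matrix glycoproteins and proteoglycans, 10 of 37 rose and 10 fell; the rises were 6 without ENPP1 24 h replicate 2, vehicle 24 h replicate 2 or vehicle 48 h replicate 1. Ltbp1, which holds latent TGF-β in the matrix (chr17:75005568-75392512, plus strand), was at 227 and 246 CPM in vehicle MCndM and 215 and 230.2 CPM in ENPP1 MCndM at 24 h, against 137 and 125 CPM and 118 and 115.9 CPM at 48 h. It fell 1.85-fold with no overlap (log2 fold change -0.89 ± 0.037 (SE), adjusted p = 1.92e-09). Thbs1, thrombospondin, fell 1.24-fold (log2 fold change -0.31 ± 0.031 (SE), adjusted p = 2.07e-06). Eln, elastin, rose from a low level (log2 fold change 0.66 ± 0.086 (SE), adjusted p = 3.3e-05), and Lama4, a laminin chain, rose although its libraries overlapped (log2 fold change 0.28 ± 0.049 (SE), adjusted p = 0.00177). Postn, the matricellular protein periostin, was at 80.3 and 71.4 CPM in vehicle MCndM and 69.8 and 70.7 CPM in ENPP1 MCndM at 24 h, against 94.5 and 85.1 CPM and 89.2 and 85.9 CPM at 48 h (log2 fold change 0.28 ± 0.042 (SE), adjusted p = 0.000289). Of 33 genes of matrix cross-linking and proteolysis, 6 rose (18.2%) and 9 fell (27.3%), or 5 fell without vehicle 24 h replicate 2 and 4 with all 20 CF libraries in the fit. Loxl3 (-0.30, adjusted p = 1.11e-06) and the chaperone Serpinh1 (-0.22, adjusted p = 4.2e-05) fell, while the hydroxylase Plod2 (0.28, adjusted p = 0.000494) and the protease inhibitor Serpine2 (0.23, adjusted p = 0.000489) rose.

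Of 25 TGF-β and BMP genes, 6 rose (24.0%) and 4 fell (16%), the falls being close to the 14.4% of all genes. Among the ligands, Inhba, the activin A chain (log2 fold change -0.40 ± 0.049 (SE), adjusted p = 2.17e-05), and Tgfb2 (log2 fold change -0.27 ± 0.048 (SE), adjusted p = 0.000653) fell, and so did the effector Smad3 (log2 fold change -0.23 ± 0.027 (SE), adjusted p = 8.24e-06). Bmp4, also a ligand and named after its value was seen, rose (0.19, adjusted p = 0.000367). Of the BMP-responsive inhibitors of helix-loop-helix factors, Id1, Id2 and Id3 rose, and Id4 did not pass the test (log2 0.53, adjusted p = 0.0805). Id2 (chr12:25093799-25097140, minus strand) was at 13.3 and 13.9 CPM in vehicle MCndM and 12.99 and 12.8 CPM in ENPP1 MCndM at 24 h, against 24.7 and 23.9 CPM and 24.9 and 21.4 CPM at 48 h, with no overlap (log2 fold change 0.84 ± 0.051 (SE), adjusted p = 9.44e-09). Id1 (log2 fold change 0.54 ± 0.055 (SE), adjusted p = 2.89e-06) and Id3 (log2 fold change 0.57 ± 0.045 (SE), adjusted p = 1.29e-06) rose by less.

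Of 28 contractile and cytoskeletal genes, 13 fell (46.4%) and 4 rose, or 2 rose without vehicle 24 h replicate 2 or with a filter of CPM 5. Actb, cytoplasmic actin (-0.20, adjusted p = 2.62e-05), and the focal adhesion genes Zyx (log2 fold change -0.32 ± 0.032 (SE), adjusted p = 2.8e-06) and Tes (-0.39, adjusted p = 7.7e-06) fell. Acta2, the smooth muscle actin that marks myofibroblasts, was at 77.4 and 72.8 CPM in vehicle MCndM and 64.8 and 55.8 CPM in ENPP1 MCndM at 24 h, against 86.7 and 87.3 CPM and 82.7 and 80.5 CPM at 48 h and rose (log2 fold change 0.32 ± 0.057 (SE), adjusted p = 0.0027). The 6 markers of smooth muscle cells and pericytes summed to 104 to 119 CPM at 24 h and 123 to 132 CPM at 48 h, nearly all of it Notch3 (log2 0.17, adjusted p = 0.000432). Their defining genes Myh11 and Rgs5 were at or below 0.564 CPM, and the part of Notch3 in the contractile result was not tested. Of 15 targets of YAP and TEAD, which respond to cell spreading, 6 fell (40.0%) and 1 rose. Ajuba (-0.29, adjusted p = 2.73e-06), the receptor Axl (-0.26, adjusted p = 1.02e-06) and Ctgf, a matricellular growth factor (-0.17, adjusted p = 0.000326), fell, and Crim1 rose (0.27, adjusted p = 0.00139).

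Of 36 inflammatory genes, 14 fell (38.9%) and 4 rose, and 9 fell without vehicle 24 h replicate 1. Il6 was at 8.66 and 9.63 CPM in vehicle MCndM and 8.20 and 10.7 CPM in ENPP1 MCndM at 24 h, against 6.81 and 6.83 CPM and 5.82 and 6.59 CPM at 48 h (log2 fold change -0.50 ± 0.087 (SE), adjusted p = 0.00044). C3, the central complement protein, was at 1094 and 1060 CPM in vehicle MCndM and 1039 and 1045 CPM in ENPP1 MCndM at 24 h, against 1390 and 1328 CPM and 1401 and 1364 CPM at 48 h and rose without overlap (log2 fold change 0.37 ± 0.027 (SE), adjusted p = 6.33e-08). Of 29 immediate early and growth factor response genes, 12 fell (41.4%) and 3 rose (10.3%). The rises were Fos (0.41, adjusted p = 0.0239), Klf2 (0.28, adjusted p = 0.0299) and Maff (0.23, adjusted p = 0.000371). The times overlapped for Fos and Klf2. Fosl1, the AP-1 subunit FRA-1, was at 22.0 and 21.2 CPM in vehicle MCndM and 22.4 and 22.2 CPM in ENPP1 MCndM at 24 h, against 12.6 and 15.1 CPM and 12.7 and 17.1 CPM at 48 h (log2 fold change -0.61 ± 0.082 (SE), adjusted p = 0.00025), and Dusp6, a phosphatase of the ERK pathway, fell (-0.29, adjusted p = 0.000886). Of 24 genes of the insulin and IGF group, 6 rose (25%) and 1 fell, or 3 rose with all 20 CF libraries in the fit. Igfbp3, a binding protein of IGFs, was at 17.1 and 15.2 CPM in vehicle MCndM and 17.1 and 16.9 CPM in ENPP1 MCndM at 24 h, against 27.3 and 28.0 CPM and 27.4 and 29.5 CPM at 48 h and rose 1.69-fold (log2 fold change 0.76 ± 0.046 (SE), adjusted p = 9.44e-09), while Irs1, an adaptor of the insulin receptor, fell (-0.22, adjusted p = 6.81e-05).

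The circadian genes moved in both directions. Of 18, 8 rose (44.4%) and 2 fell. Arntl, the activator BMAL1, fell (log2 fold change -0.41 ± 0.050 (SE), adjusted p = 1.72e-05), as did Nfil3 (log2 fold change -0.37 ± 0.035 (SE), adjusted p = 1.21e-06). Per3 (log2 fold change 0.41 ± 0.044 (SE), adjusted p = 4.42e-06), the REV-ERB gene Nr1d2 (log2 fold change 0.28 ± 0.027 (SE), adjusted p = 1.67e-06) and Dbp (log2 fold change 0.25 ± 0.059 (SE), adjusted p = 0.00475) rose. Other clock genes were named after their values were seen. Clock (0.055), Per1 (-0.089), Per2 (-0.147), Cry1 (-0.003) and Cry2 (0.026) did not pass the test. Npas2 rose from a low level with overlap between times (0.43, adjusted p = 0.0407). Of 32 genes of lysosome and autophagy, 15 rose (46.9%) and 4 fell. Ctsl was at 511 and 523 CPM in vehicle MCndM and 529 and 523 CPM in ENPP1 MCndM at 24 h, against 605 and 634 CPM and 625 and 622 CPM at 48 h (log2 fold change 0.25 ± 0.024 (SE), adjusted p = 1.55e-06), and Ctsd (0.21, adjusted p = 5.93e-06) and Hexa (0.23, adjusted p = 6.59e-06), also lysosomal hydrolases, rose, while Gla (-0.27, adjusted p = 0.002) and the autophagy receptor Sqstm1 (-0.19, adjusted p = 0.000264) fell.

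The study concerns ENPP1 and pyrimidine synthesis, so the genes of both were read in these media. Enpp1 itself was at 6.24 and 5.83 CPM in vehicle MCndM and 5.82 and 5.11 CPM in ENPP1 MCndM at 24 h, against 8.22 and 6.12 CPM and 6.19 and 8.10 CPM at 48 h. It was called higher at 48 h (log2 fold change 0.32 ± 0.11 (SE), adjusted p = 0.0406), but the times overlapped and the call was lost without ENPP1 24 h replicate 1 (adjusted p = 0.0772), ENPP1 24 h replicate 2 (0.129), vehicle 24 h replicate 2 (0.102), ENPP1 48 h replicate 2 (0.128) or vehicle 48 h replicate 1 (0.166). Umps, which makes UMP, was at 86.9 and 87.0 CPM in vehicle MCndM and 89.8 and 86.0 CPM in ENPP1 MCndM at 24 h, against 85.1 and 85.0 CPM and 83.3 and 85.5 CPM at 48 h (log2 fold change -0.044 ± 0.027 (SE), adjusted p = 0.247). Of 24 genes of pyrimidine synthesis and salvage, 7 rose (29.2%) and 6 fell (25%), beside 12.1% and 14.4% of all genes. Rrm2, Tyms and Dck, described above with the replication genes, are among the rises. Rrm2, Tyms, Rrm1 and Tk1, all rises, are also members of the replication list. Cad (0.001, adjusted p = 0.991) and Dhodh (-0.020, adjusted p = 0.862), named after their values were seen, did not pass the test. The pyrimidine falls numbered 3 without ENPP1 24 h replicate 2 or vehicle 48 h replicate 1. Of 29 purine genes, 3 rose (10.3%, close to the share of all genes) and 9 fell (31%), or 5 fell without ENPP1 24 h replicate 1. Pnp, which splits purine nucleosides, was at 230.2 and 252 CPM in vehicle MCndM and 209 and 244 CPM in ENPP1 MCndM at 24 h, against 184 and 191 CPM and 179 and 181 CPM at 48 h (log2 fold change -0.35 ± 0.046 (SE), adjusted p = 0.000289; 2 annotated genes overlap it on the same strand).

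The largest rises among genes whose mean log2 CPM reached 2 belonged to several classes. Gdpd2, a glycerophosphodiesterase, was at 3.38 and 2.48 CPM in vehicle MCndM and 3.44 and 3.24 CPM in ENPP1 MCndM at 24 h, against 8.22 and 7.75 CPM and 7.07 and 4.84 CPM at 48 h (log2 fold change 1.14 ± 0.16 (SE), adjusted p = 0.000284). Sema3b, a semaphorin, was at 3.73 and 3.64 CPM in vehicle MCndM and 3.56 and 5.005 CPM in ENPP1 MCndM at 24 h, against 7.88 and 7.60 CPM and 8.07 and 8.07 CPM at 48 h (log2 fold change 0.99 ± 0.096 (SE), adjusted p = 1.56e-06). Dapk1, a death-associated kinase (log2 fold change 0.86 ± 0.052 (SE), adjusted p = 9.44e-09), and Heph, a ferroxidase (log2 fold change 0.81 ± 0.11 (SE), adjusted p = 6.31e-05), rose as well. Fbln7, a fibulin (0.75, adjusted p = 5.81e-06), and Pcsk6, a proprotein convertase (0.72, adjusted p = 8.4e-06), followed. Pdgfra, the PDGF receptor that marks fibroblasts, was at 28.0 and 22.6 CPM in vehicle MCndM and 23.6 and 20.2 CPM in ENPP1 MCndM at 24 h, against 46.9 and 36.5 CPM and 39.3 and 32.6 CPM at 48 h (log2 fold change 0.71 ± 0.12 (SE), adjusted p = 0.00803). Of 18 Wnt genes, 2 rose and 2 fell (11.1% each). Wisp1 fell 1.44-fold (log2 fold change -0.52 ± 0.026 (SE), adjusted p = 1.92e-09) and Sfrp2, a secreted frizzled-related protein, rose (log2 fold change 0.17 ± 0.035 (SE), adjusted p = 0.00205).

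ATP MCndM gave 4 libraries outside the comparison above, and their CPM values are scaled over all 20 CF libraries. There 1491 of 17879 genes (8.34%) were higher and 1152 (6.44%) lower at 48 h, in 1 fit of all 20 CF libraries. These counts rest on few libraries: 895 were higher and 531 lower without ATP 24 h replicate 1, 968 and 767 without ATP 24 h replicate 2, 888 and 499 without ATP 48 h replicate 1, and 1012 and 657 without ATP 48 h replicate 2. Of 1993 genes that rose in vehicle and ENPP1 MCndM and were tested here, 1757 (88.2%) had a positive change in ATP MCndM, 811 (40.7%) were called higher and 2 lower. Of 2382 that fell, 1985 (83.3%) had a negative change, 827 (34.7%) were called lower and 75 higher. The difference between the 2 changes with time was tested for every gene, and the change in ATP MCndM exceeded that in vehicle and ENPP1 MCndM for 390 genes (2.18%) and was below it for 38 (0.213%).

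Interferon-stimulated genes fell and replication genes rose in ATP MCndM too. Of the interferon-stimulated genes 36 of 45 fell and 2 rose there, and the difference was called for 0 members higher and 1 lower. That member was Ifi27, which was at 96.4 and 94.9 CPM at 24 h and 119 and 123 CPM at 48 h in ATP MCndM and rose by less (difference -0.55 ± 0.095 (SE), adjusted p = 0.00221). Ifnb1 was at 2.09 and 1.93 CPM at 24 h and 0.784 and 0.353 CPM at 48 h (log2 fold change -1.79 ± 0.38 (SE), adjusted p = 0.00175), Mx1 at 98.6 and 100.7 CPM at 24 h and 48.1 and 36.2 CPM at 48 h (log2 fold change -1.24 ± 0.36 (SE), adjusted p = 0.0433) and Cxcl10 at 356 and 361 CPM at 24 h and 161 and 146 CPM at 48 h (log2 fold change -1.22 ± 0.13 (SE), adjusted p = 6.69e-05). Of the replication genes 32 of 49 rose and 0 fell, of ribosome biogenesis 36 of 43 fell and 1 rose, and of G2 and mitosis 24 of 54 fell and 2 rose. Ccnd1 was at 71.5 and 65.0 CPM at 24 h and 41.8 and 43.7 CPM at 48 h and fell (log2 fold change -0.68 ± 0.080 (SE), adjusted p = 3.77e-06).

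Sterol and collagen genes changed differently. Of the 25 sterol genes, 22 rose and 0 fell in ATP MCndM, and the difference from vehicle and ENPP1 MCndM was called for 23, each higher, beside 2.18% of all genes. Hmgcs1 was at 488 and 492 CPM at 24 h and 612 and 657 CPM at 48 h (log2 fold change 0.37 ± 0.060 (SE), adjusted p = 0.000111), a difference of 0.60 ± 0.073 (SE), adjusted p = 4.09e-05. Hsd17b7 and Fdps differed by 0.56 ± 0.100 (SE), adjusted p = 0.00274, and by 0.68 ± 0.095 (SE), adjusted p = 0.000172. For fatty acid synthesis 11 of 12 rose and the difference was called for 11, among them Scd1 (0.36 ± 0.066 (SE), adjusted p = 0.00207). Of 21 collagens 12 rose and 0 fell, and the difference was called for 12, each higher. Col5a1 was at 599.8 and 624 CPM at 24 h and 721 and 671 CPM at 48 h (log2 fold change 0.19 ± 0.060 (SE), adjusted p = 0.0374; difference 0.52 ± 0.074 (SE), adjusted p = 0.000235), and Col5a3 differed by 0.67 ± 0.093 (SE), adjusted p = 0.000172. Acta2 rose further (log2 fold change 0.94 ± 0.077 (SE), adjusted p = 2.66e-08; difference 0.62 ± 0.092 (SE), adjusted p = 0.000364), as did Dapk1 (difference 0.57 ± 0.10 (SE), adjusted p = 0.00248) and C3 (difference 0.38 ± 0.081 (SE), adjusted p = 0.00957).

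**Figure D4:**
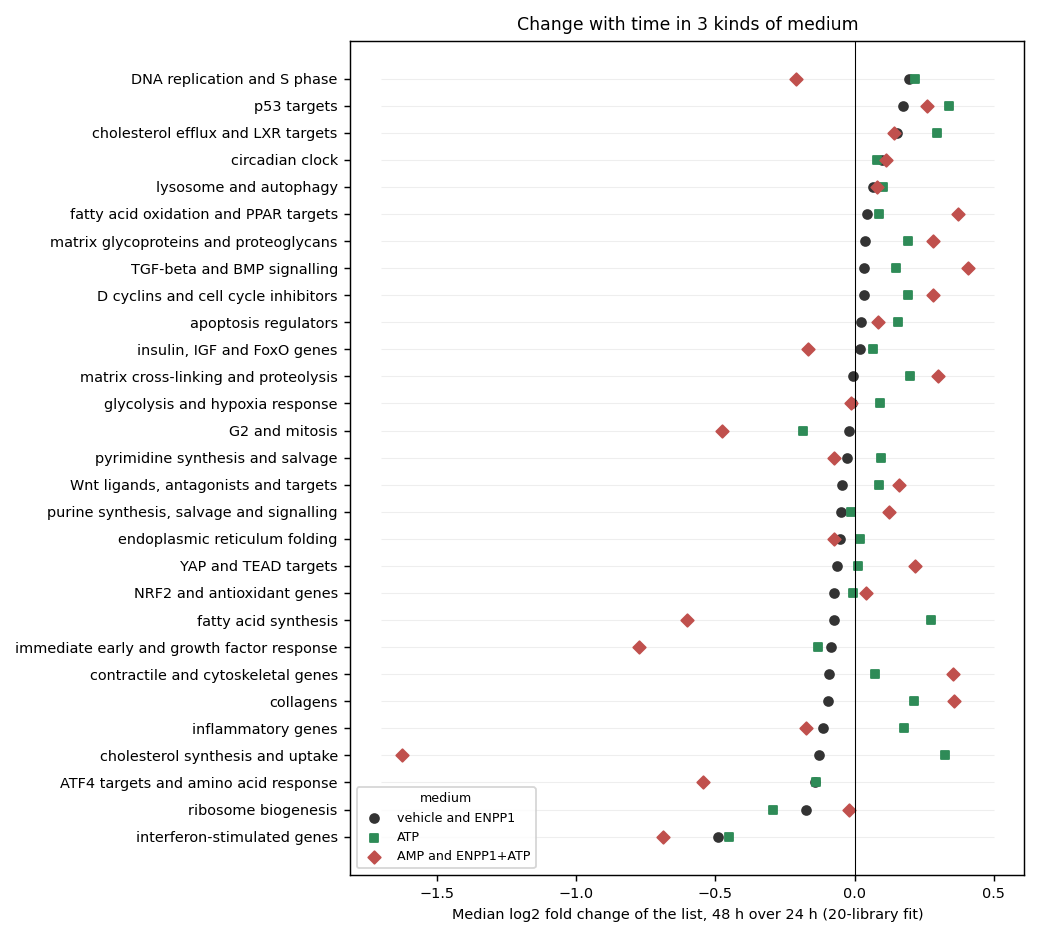
Median log2 fold change of each list at 48 h over 24 h in vehicle and ENPP1 MCndM (circles), ATP MCndM (squares) and AMP and ENPP1+ATP MCndM (diamonds), all from 1 fit of 20 libraries. Interferon-stimulated genes lie below 0 in all 3, at -0.49, -0.45 and -0.69, whereas cholesterol synthesis lies at -0.129, 0.324 and -1.63.

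In AMP and ENPP1+ATP MCndM the change with time was different for many genes. There 4670 genes were higher (26.1%) and 4726 lower (26.4%) at 48 h. The difference from vehicle and ENPP1 MCndM was called higher for 4008 genes (22.4%) and lower for 3850 (21.5%). Of the 49 replication genes 34 fell and 6 rose there, and the difference was called lower for 41. All 25 sterol genes fell there, with a median of -1.63, and all 25 differed from the smaller fall described above. Interferon-stimulated genes fell there as well, 38 of 45, with the difference called lower for 18 and higher for 5. Of the genes named here from the 12 largest rises and 12 largest falls, Ifi27 differed most (-1.34 in AMP and ENPP1+ATP MCndM, difference -2.23 ± 0.077 (SE), adjusted p = 1.55e-14). Within that choice Fbln7 (difference -1.73 ± 0.23 (SE), adjusted p = 1.06e-06), Igfbp3 (-1.38 ± 0.12 (SE), adjusted p = 1.08e-09) and Id2 (-1.22 ± 0.12 (SE), adjusted p = 7.61e-09) followed. Ifi27 and these genes all rose in vehicle and ENPP1 MCndM. Pdgfra (0.42 ± 0.13 (SE), adjusted p = 0.01) and Dapk1 (0.29 ± 0.082 (SE), adjusted p = 0.00527) rose further. Ccnd1, which fell in vehicle and ENPP1 MCndM but was not among the 12 largest falls, differed by more than Fbln7. It had a log2 change of 0.78 (difference 1.81 ± 0.080 (SE), adjusted p = 4.65e-14).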

How the data were processed

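RNA of the CFs was sequenced by the authors, and whole-number read counts per gene and library were deposited as 1 table of 30892 genes and 20 CF libraries, not normalized. The submitters' processing notes name STAR 2.5.3a, Cell Ranger, mm10 and rn6 without saying which made what. The counting program, the annotation and the strand setting are not given in the sources used here. Gene positions came from GENCODE M21 (GRCm38).

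The test was that of edgeR 4.0.16, run under R 4.3.3 (filterByExpr, TMM factors, robust quasi-likelihood fit), on the 8 libraries with terms for medium and time. P-values were adjusted by Benjamini-Hochberg over all genes tested, with a threshold of 0.05. ATP, AMP and ENPP1+ATP MCndM were tested as contrasts of 1 fit of 20 libraries with a mean per medium and time. The procedure was tested on simulated data. Replicates differed by more than sampling noise (chi-square per degree of freedom 6.52 to 11.6). No test for these counts is named in the sources used here.

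Genes were named from the 12 largest rises and 12 largest falls among called genes that did not overlap between times and whose mean log2 CPM reached 2, from up to 3 rises and 3 falls among the called members of each list whose mean log2 CPM reached 1, from genes of the study, and, for AMP and ENPP1+ATP MCndM, from up to 4 genes each way. Not all are printed. Genes of the interferon pathway, and others marked so, were added after their values were seen, as the text says. Members, lists and tests were chosen with earlier results of these data known. Alternatives were DESeq2 1.42.0, other scaling factors, other filters, a replicate block, all 20 libraries in the fit, each medium alone and leaving out each library. The other libraries of the series are not used here.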

Additional observations from a re-analysis of the deposited data

Results flagged for a closer look

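The change with time differed between media. It was higher in AMP and ENPP1+ATP MCndM than in vehicle and ENPP1 MCndM for 4008 genes and lower for 3850, and in ATP MCndM it was higher for 390 and lower for 38, each by edgeR's test of the difference. On the log2 scale the difference between AMP and ENPP1+ATP MCndM and vehicle and ENPP1 MCndM was -2.23 for Ifi27, -1.73 for Fbln7, -1.38 for Igfbp3, -1.22 for Id2, 0.42 for Pdgfra and 0.29 for Dapk1. The difference between ATP MCndM and vehicle and ENPP1 MCndM was 0.68 for Fdps, 0.67 for Col5a3, 0.62 for Acta2, 0.60 for Hmgcs1, 0.57 for Dapk1, 0.56 for Hsd17b7, 0.52 for Col5a1, 0.38 for C3, 0.36 for Scd1 and -0.55 for Ifi27.

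In 19 of 264 groups of 4 libraries of 1 time, 1 library lay apart by Dixon's test of its gap to the nearest other over the whole range. Chance gives about 1 in 20 groups. The total count of vehicle 24 h replicate 1 was 115824659 against 41125110 to 48288100 in the other 24 h libraries (gap 0.904). Single libraries stood apart for Mx1 in vehicle 48 h replicate 1 (31.1 CPM, above 28.6 to 28.8 CPM in the others, gap 0.905), Ccnd1 in vehicle 24 h replicate 2 (51.6 CPM, above 46.4 to 47.0 CPM in the others, gap 0.897) and Ccnb2 in ENPP1 24 h replicate 1 (66.5 CPM, above 63.3 to 63.8 CPM in the others, gap 0.872). The same held for Plk1 in vehicle 24 h replicate 2 (88.1 CPM, below 95.5 to 97.0 CPM in the others, gap 0.838), Mdm2 in vehicle 24 h replicate 1 (134 CPM, below 140.1 to 141 CPM in the others, gap 0.831) and Dkc1 in ENPP1 48 h replicate 2 (55.5 CPM, below 60.8 to 61.2 CPM in the others, gap 0.925). Others were Xbp1 in vehicle 24 h replicate 2 (79.4 CPM, above 72.2 to 72.6 CPM in the others, gap 0.938), Hmgcs1 in vehicle 24 h replicate 1 (727 CPM, below 816 to 829 CPM in the others, gap 0.873) and Abca1 in ENPP1 48 h replicate 1 (190.3 CPM, above 175 to 178 CPM in the others, gap 0.834). Among matrix and signalling genes were Postn in vehicle 24 h replicate 1 (80.3 CPM, above 69.8 to 71.4 CPM in the others, gap 0.848), Eln in ENPP1 24 h replicate 1 (3.81 CPM, below 4.21 to 4.30 CPM in the others, gap 0.83) and Loxl3 in ENPP1 24 h replicate 1 (105 CPM, below 112 to 112 CPM in the others, gap 0.905). Further cases were Tgfb2 in vehicle 48 h replicate 1 (27.7 CPM, above 23.5 to 23.9 CPM in the others, gap 0.909), Igfbp3 in vehicle 24 h replicate 2 (15.2 CPM, below 16.9 to 17.1 CPM in the others, gap 0.885) and Arntl in ENPP1 48 h replicate 2 (18.4 CPM, above 16.4 to 16.6 CPM in the others, gap 0.944). The last were Dbp in ENPP1 48 h replicate 1 (14.6 CPM, above 12.9 to 13.1 CPM in the others, gap 0.885), Sema3b in ENPP1 24 h replicate 2 (5.005 CPM, above 3.56 to 3.73 CPM in the others, gap 0.884) and Stat2 in ENPP1 24 h replicate 2 (819 CPM, above 772 to 778 CPM in the others, gap 0.873).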

How the results depend on the processing

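The 1994 higher and 2382 lower genes became 1223 and 1701 with all 20 CF libraries in the fit. They became 717 and 1087 in vehicle MCndM alone, and 1002 and 1352 in ENPP1 MCndM alone. Without 1 library they ranged from 1434 to 1962 higher and from 1945 to 2321 lower. Upper-quartile factors moved the share of higher calls from 45.6% to 54.6%, with a median shift over all genes of 0.0169. ENPP1 against vehicle (0 higher, 1 lower) gave 5 and 27 genes with DESeq2, 106 and 206 with no filter, 0 lower with upper-quartile factors and with all 20 libraries, and 0 to 10 higher and 0 to 22 lower without 1 library. The interaction gave 0 to 60 genes higher without 1 library. In ATP MCndM 888 to 1012 genes were higher and 499 to 767 lower without 1 library. AMP and ENPP1+ATP minus vehicle and ENPP1 gave 3691 to 4219 higher and 3460 to 4105 lower without 1 library. The labels do not say whether replicate numbers pair the libraries, and the main fit has no block for them. The difference of replicate 1 minus replicate 2 in log2 CPM was compared over genes between pairs of groups. These differences correlated at 0.058 to 0.335, with 1 pair under 0.1. With the replicate block the time effect had 2737 higher and 2857 lower genes, the medium effect 60 and 150, the interaction 0 and 0, the ATP change 1576 and 1243, and the AMP difference 4085 and 3942. The block also called Cdkn1a (log2 0.37, adjusted p = 0.00742) and Col1a2 (-0.071, adjusted p = 0.0143). Upper-quartile factors gave 2406 higher and 2003 lower genes, so that more were higher than lower. List counts of 4 or fewer moved by at most 2 genes without 1 library. The single-gene changes with time in vehicle and ENPP1 MCndM that were recomputed kept their sign, but in 1 medium alone some lost their call. In both media these were Atf3, Col1a1, Enpp1, Gdf15, H2-D1 and Pdgfra. In vehicle MCndM they were B2m, Ccng1, Dbp (adjusted p = 0.156), Fas, Fdps, Gla, Mdm2, Melk, Oas3 and Tgfb2, and in ENPP1 MCndM Col4a5, Elovl6, Mylip and Sfrp2 (0.094, adjusted p = 0.154). Of the lists with 6 or more calls in a direction, most had fewer in 1 medium alone, such as lysosome and autophagy (15 rises against 7 in vehicle and 9 in ENPP1 MCndM) and contractile genes (13 falls against 6 and 7). The values of Bmp4, Id4, Notch3, Clock, Per1, Per2, Cry1, Cry2, Npas2, Fos, Klf2, Maff, Cad and Dhodh were not recomputed. Nor were the gene values in the other media. The cause of the differences was not tested. Low genes such as Ifna4 and Ifnb1 rest on few counts, and the effect of depth was not tested.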

Other observations

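The remaining lists are read against 12.1% of all genes called higher and 14.4% called lower. Of 25 genes of fatty acid oxidation and PPAR targets, 5 rose (20%) and 1 fell, with 1 to 4 rises without 1 library. Of 33 genes of glycolysis and hypoxia response, 3 rose and 8 fell (24.2%), with 5 to 11 falls without 1 library. Of 29 apoptosis regulators, 4 rose and 8 fell (27.6%), with 4 to 7 falls without 1 library. Of 22 NRF2 and antioxidant genes, 1 rose and 7 fell (31.8%), with 5 to 8 falls without 1 library.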
